A study of Homo sapiens with 8 samples.

Results

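The folding machinery of the endoplasmic reticulum was followed through 10 of the 11963 genes measured in 4 established lines of human ovarian cancer cells, named CAOV-3, DOV-13, OVCAR-3 and SKOV-3: the chaperone genes HSPA5, HSP90B1, HYOU1, DNAJB9, PDIA3, PDIA4, PDIA6 and CALR, the transcription factor gene XBP1, and HERPUD1. Every probe set whose only gene symbol in the platform annotation is one of these names was taken, which gave 18 of the 22277 probe sets of the array. RNA was measured on 8 Affymetrix arrays. Each line gave a pair of arrays, 1 from cells exposed to pI:pC (polyriboinosinic:polyribocytidylic acid, a made double-stranded RNA that is sensed much like RNA of a virus) and 1 from untreated cells, so that 4 arrays were treated and 4 were untreated. All cells grew in the same serum-containing medium, and the labels give no dose or exposure time for a single array, nor say whether an array held 1 culture or several. Values are RMA levels on the log2 scale, on which a difference of 1 is a doubling.

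Proteins bound for the cell surface or for secretion fold inside the endoplasmic reticulum with the help of chaperones and of enzymes that form disulfide bonds. When unfolded protein accumulates there, the sensors IRE1 (gene ERN1), PERK (EIF2AK3) and ATF6 start the unfolded protein response. IRE1 splices XBP1 mRNA so that it encodes an active transcription factor, ATF6 is cut free from the membrane, and both raise transcription of chaperone genes through short promoter elements. The array measures the summed XBP1 transcript, and the annotation supplied with the data does not separate its spliced and unspliced forms.

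The promoters of the members are shown because the elements through which ATF6 and XBP1 act are spelled there, and whether those elements had a part in any difference was not tested. RefSeq promoter windows (build GRCh38.p14, 250 bases before to 50 bases after a gene start) matched 9 of the 10 genes, with 12 windows. PDIA3 had no window and was not searched. Searched on both strands, the ER stress response element (ERSE), spelled CCAAT, then any 9 bases, then CCACG, was found in windows of 5 genes, HSPA5, HSP90B1, PDIA6, CALR and XBP1. Its second form (ERSE-II), ATTGG, then any 1 base, then CCACG, was found in windows of HYOU1 and HERPUD1. Of all 35116 windows, 0.077% held an ERSE and 0.054% an ERSE-II. Another XBP1 and ATF6 element, TGACGTGG, was found in HYOU1 and in 0.729% of all windows. Its match in HYOU1 overlaps one of that gene's ERSE-II matches. The windows of DNAJB9 and PDIA4 held none of these 3 exact spellings, which says nothing of which factors act there. The upstream stretches that hold the matches follow, 5′ to 3′ in the direction of the gene, with the fixed letters of the elements in capitals.
HSPA5: ttcaCCAATcggcggcctCCACGacgg
HSP90B1: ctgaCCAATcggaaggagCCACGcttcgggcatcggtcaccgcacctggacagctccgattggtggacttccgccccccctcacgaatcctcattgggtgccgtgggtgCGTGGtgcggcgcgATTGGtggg
HYOU1: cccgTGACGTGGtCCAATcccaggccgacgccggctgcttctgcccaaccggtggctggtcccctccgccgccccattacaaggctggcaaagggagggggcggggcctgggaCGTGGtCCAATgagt
PDIA6: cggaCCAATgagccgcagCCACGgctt
CALR: cacgCGTGGtcgaccatcATTGGtcgg
XBP1: ctggCCAATcgcggagggCCACGaccg
HERPUD1: gccgATTGGgCCACGttgg
These stretches lie at chr9:125241387-125241413 on the minus strand for HSPA5, chr12:103930212-103930343 on the plus strand for HSP90B1, chr11:119057270-119057397 on the minus strand for HYOU1 and chr2:10812849-10812875 on the minus strand for PDIA6. The others lie at chr19:12938380-12938406 on the plus strand for CALR, chr22:28800599-28800625 on the minus strand for XBP1 and chr16:56932021-56932039 on the plus strand for HERPUD1. All lie upstream of the annotated gene start. In HSP90B1 the capitals mark 2 elements in opposite orientations, and in HYOU1 the 2 ERSE-II matches run in the same direction. The lone CALR element is read from the opposite strand. For PDIA6 and XBP1, which have 2 windows each, the match is in 1 of them.

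**Figure D1:**
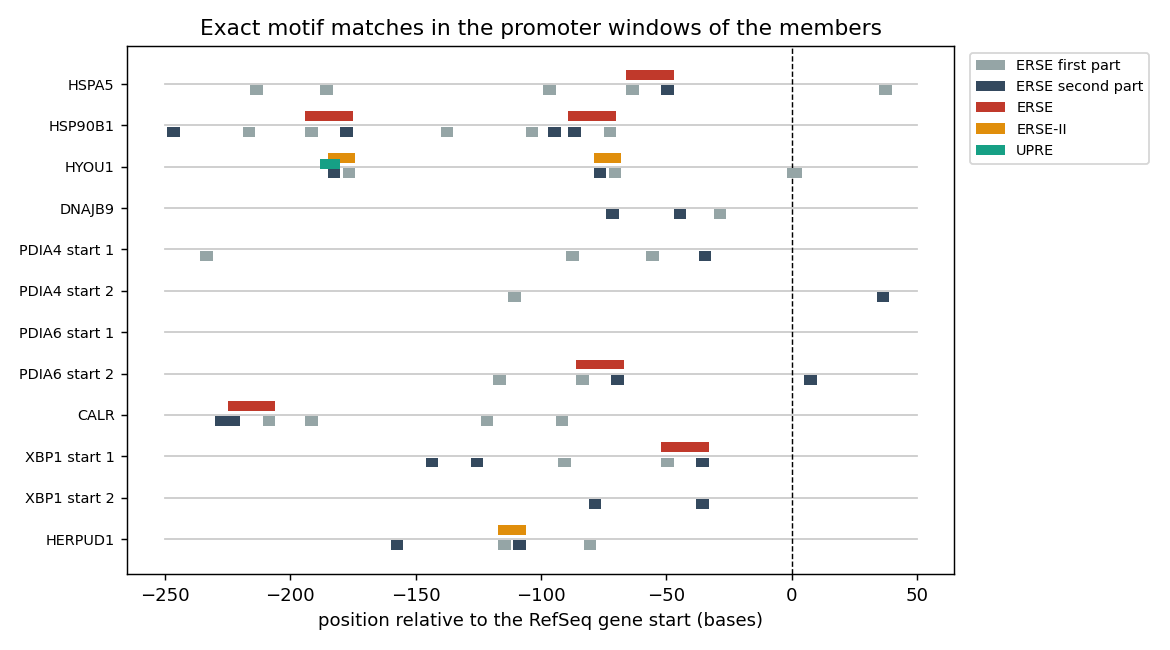
Exact matches of the ERSE, ERSE-II and UPRE (TGACGTGG) elements and of the parts of the ERSE (first part CCAAT, second part CCACG) in the 12 RefSeq promoter windows of 9 members, on either strand; the horizontal axis is the position in bases relative to the gene start (dashed line). ERSE bars appear for 5 genes and ERSE-II bars for 2, and the parts inside those bars are drawn below them.

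The median value of an array lay between 6.19 and 6.30. The keratin genes KRT8, KRT18 and KRT19, the lineage factor gene PAX8 and WFDC2 reached the array median on all 8 arrays. The epithelial adhesion gene CDH1 stayed under it in SKOV-3 and DOV-13, EPCAM did so in DOV-13, and MUC16 did so outside OVCAR-3. Of 5 measured leukocyte markers 1 reached the median on any array, CD14 in untreated CAOV-3. Among plasma cell markers, which matter here because secretory cells are rich in these chaperones, SDC1, which epithelial cells also express, reached it on all 8 arrays and PRDM1 on 3, while JCHAIN, TNFRSF17 and MZB1 stayed under it on every array. Interferon-stimulated genes, known targets of the sensing of double-stranded RNA, had median differences of 3.20 in OVCAR-3, 2.12 in CAOV-3, 0.13 in SKOV-3 and 0.059 in DOV-13, over 9 measured genes.

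How the members differed between lines was asked first. XBP1, DNAJB9 and PDIA3 differed most, each by more than 1.8 log2 units between the highest and the lowest line, while HSPA5 and HSP90B1 had no difference past the test. XBP1 was highest in OVCAR-3 and lowest in DOV-13. DNAJB9 was high in OVCAR-3 and CAOV-3 and low in DOV-13 and SKOV-3. HERPUD1 and the main CALR probe set went the other way and were highest in SKOV-3 and lowest in OVCAR-3. In limma's F test over the lines, with the treatment as an additive term, 14 of the 18 member probe sets (77.8%) had an adjusted p under 0.05. Over all probe sets 65.5% did, and 90.5% of those at or above the median level, so the members' share is near the background. The 2 arrays of a line stand in for its replicates here, and without OVCAR-3 the 14 became 7, all HYOU1, CALR and PDIA6 calls being lost. In bulk RNA, fewer cells of a type and less RNA per cell cannot be told apart.

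XBP1, whose product raises transcription of chaperone and degradation genes, read 9.42, 8.04, 10.24 and 8.76 in treated CAOV-3, DOV-13, OVCAR-3 and SKOV-3 cells, against 9.54, 7.58, 10.17 and 8.86 in the untreated cells of those lines. The lines did not overlap, and each neighbouring pair in the order OVCAR-3, CAOV-3, SKOV-3 and DOV-13 differed (limma, adjusted p = 0.00417, 0.00592 and 0.00117). DOV-13 lay 2.40 ± 0.15 (SE) below OVCAR-3 over both arrays of each line. PDIA3 (ERp57), the disulfide isomerase that works with calreticulin and also sits in the MHC class I peptide-loading complex, read 11.35, 9.49, 10.60 and 10.19 in treated cells of the 4 lines in the same order and 11.01, 9.20, 10.51 and 10.07 in untreated ones. Here too each neighbouring pair differed, in the order CAOV-3, OVCAR-3, SKOV-3 and DOV-13 (adjusted p = 0.00109, 0.00848 and 0.00053). The pairwise contrasts called 34.8% of all probe sets for SKOV-3 minus DOV-13, 46.8% for SKOV-3 minus CAOV-3, 47.1% for SKOV-3 minus OVCAR-3, 46.4% for DOV-13 minus CAOV-3, 46% for DOV-13 minus OVCAR-3 and 47.4% for CAOV-3 minus OVCAR-3.

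DNAJB9 (ERdj4) is a J-domain co-chaperone that steers HSPA5 and is a well-known XBP1 target. Its brighter probe set read 8.59, 6.83, 8.58 and 5.91 in treated CAOV-3, DOV-13, OVCAR-3 and SKOV-3 cells, against 8.19, 6.58, 8.52 and 6.10 in untreated ones. OVCAR-3 and CAOV-3 did not differ past the test (adjusted p = 0.392), CAOV-3 stood above DOV-13 (adjusted p = 3.67e-05) and DOV-13 above SKOV-3 (adjusted p = 0.00537). The dimmer probe set, 202843_at, gave the same order but reached the array median on 1 array alone, treated CAOV-3. It read 6.43, 4.69, 6.03 and 4.13 in treated and 5.55, 4.18, 6.15 and 4.03 in untreated cells.

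PDIA4 (ERp72), a disulfide isomerase of the lumen, was highest in CAOV-3. Probe set 211048_s_at read 10.79, 9.25, 9.46 and 8.73 in treated cells of CAOV-3, DOV-13, OVCAR-3 and SKOV-3, against 9.99, 9.07, 9.37 and 8.85 in untreated cells. CAOV-3 exceeded the next line by both probe sets (adjusted p = 0.00382 for 211048_s_at and 0.000711 for 208658_at), and the order of the other 3 lines, which did not separate between neighbours, differed between the 2 probe sets. PDIA6 (P5), another isomerase, was nearly level across lines, with 11.52, 11.07, 10.96 and 11.10 in treated and 11.23, 11.02, 10.83 and 11.03 in untreated cells by its probe set with the highest mean. CAOV-3 was above its neighbour by that probe set (adjusted p = 0.0275). Of its 4 probe sets, 3 passed the F test and 208638_at, with levels between 10.84 and 11.11, did not (adjusted p = 0.649).

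HSPA5 (BiP), the HSP70 chaperone of the lumen that also holds the stress sensors inactive, varied little. Its single probe set read 11.87, 11.77, 11.98 and 11.76 in treated cells of the 4 lines and 11.49, 11.65, 11.98 and 11.80 in untreated ones, and no line difference passed the F test (adjusted p = 0.167). HSP90B1 (GRP94), the HSP90 of the lumen, read 10.63, 10.13, 10.26 and 10.19 in treated and 10.13, 10.16, 10.33 and 10.43 in untreated cells by probe set 216449_x_at, again with no line difference past the test (adjusted p = 0.597). Both OVCAR-3 values of HSPA5 lay above those of the other lines, which overlapped, and the CAOV-3 pair of HSP90B1 spanned both values of OVCAR-3 and of SKOV-3. HYOU1 (GRP170), which exchanges nucleotide on HSPA5, read 9.79, 9.44, 8.74 and 9.39 in treated and 9.23, 9.27, 8.78 and 9.22 in untreated cells. OVCAR-3 lay below its neighbour SKOV-3 (adjusted p = 0.0128), and the other 3 lines did not separate.

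CALR, the lectin chaperone calreticulin, read 10.20, 10.10, 9.64 and 10.48 in treated CAOV-3, DOV-13, OVCAR-3 and SKOV-3 cells, against 9.98, 10.14, 9.60 and 10.36 in untreated ones, by its brightest probe set. OVCAR-3 was lowest by all 3 CALR probe sets, and its step to the next line passed in each (adjusted p between 0.00418 and 0.0423). HERPUD1, a membrane protein that helps to assemble the complex for degradation of misfolded proteins, read 9.08, 9.39, 8.95 and 9.76 in treated and 9.21, 9.19, 8.84 and 9.82 in untreated cells. SKOV-3 stood above DOV-13 (adjusted p = 0.00805), and neither of the lower neighbouring steps passed (adjusted p = 0.313 and 0.0925).

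**Figure D2:**
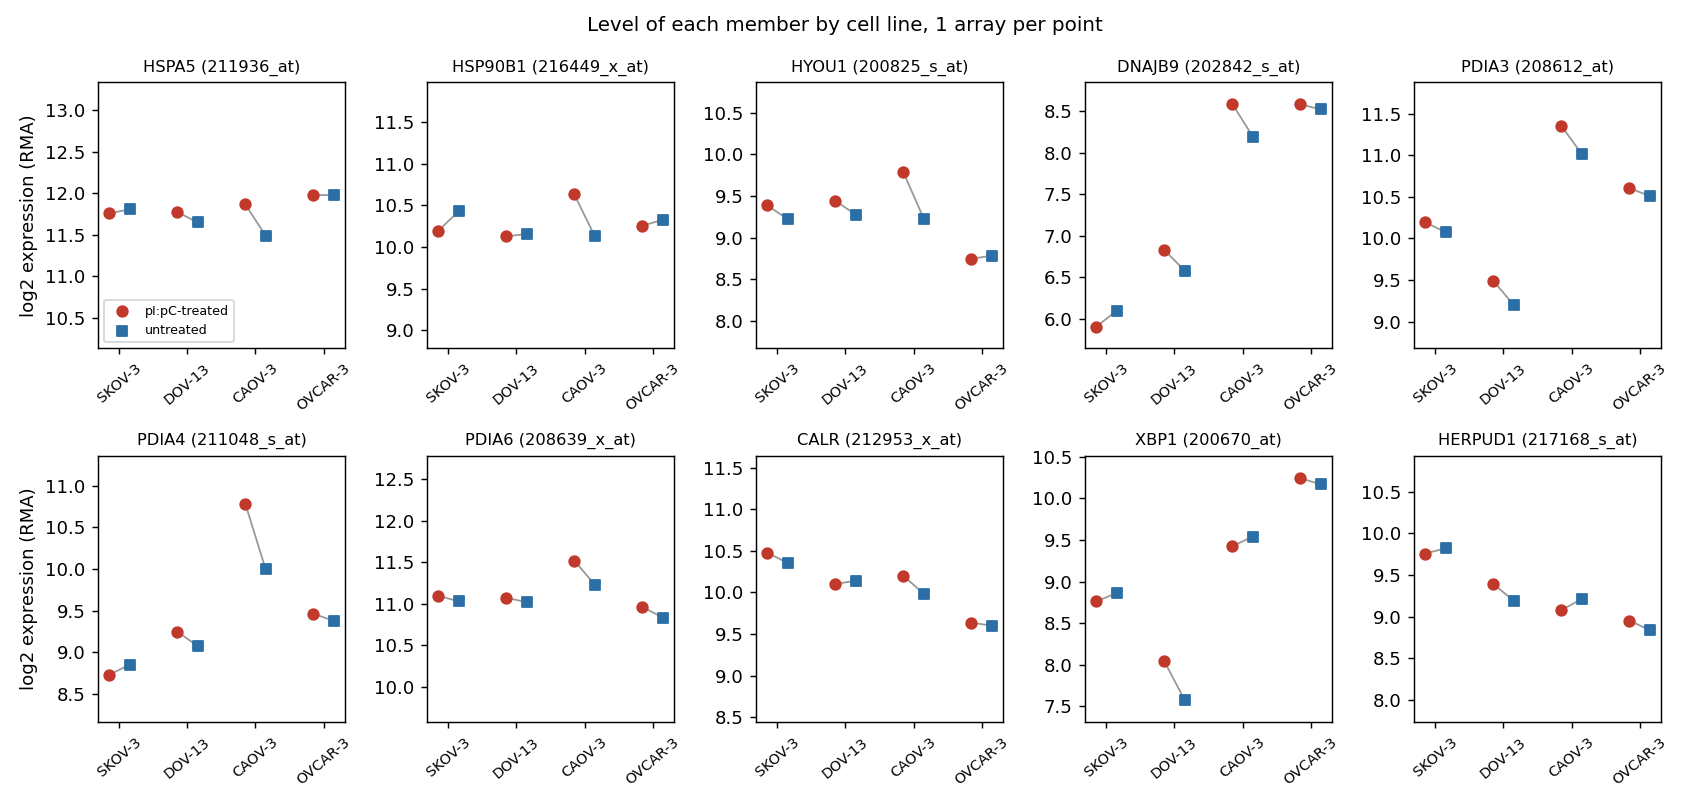
Log2 RMA level of each member by its probe set with the highest mean, with the treated array (circles) left of the untreated array (squares) of each cell line, 1 array per point and a line joining each pair. XBP1, DNAJB9 and PDIA3 spread widely between lines, HSPA5 and HSP90B1 little, and PDIA4 and HYOU1 show their widest treated to untreated gap in CAOV-3.

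Across the 8 arrays, the genes with the profile most like XBP1 were SLCO3A1, ARIH1, GOLGB1, KBTBD4 and EIF4EBP2, each with a Pearson r of 0.987 to 0.991 among 4948 candidate genes. Those most like HSPA5 were PUS3, SRM, YIF1B, POLR3D and NDRG1, with r of 0.885 to 0.924. The 8 arrays are 4 pairs that share a line, so the XBP1 profile is mostly a profile over 4 lines. HSPA5 had no line difference past the test, and its CAOV-3 pair lay apart, at 11.87 treated and 11.49 untreated. NDRG1, POLR3D, PUS3, SRM and YIF1B differed there by 1.24, 0.54, 0.53, 0.48 and 0.32. Among the members themselves, over the same arrays, XBP1 had r = 0.796 with PDIA3 and 0.762 with DNAJB9. With HSPA5, PDIA4 and HSP90B1 its r was 0.497, 0.398 and 0.355. For PDIA6, HERPUD1, HYOU1 and CALR the r with XBP1 was negative, at -0.058, -0.511, -0.526 and -0.642. Of all member pairs, CALR and HERPUD1 had the highest r, 0.863, and DNAJB9 and HERPUD1 the lowest, -0.884.

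The treatment comparison asked whether the members differed between pI:pC-treated and untreated cells. All 18 probe sets had a positive mean of treated minus untreated over the 4 lines, against 53.3% of all probe sets, and CAOV-3 held the highest difference for 16 of them. None passed the limma fit in which the line was a block (adjusted p at least 0.996), and 0 of 22215 probe sets passed in the whole table (0% called). At an unadjusted p under 0.05 there were 2 member probe sets, PDIA3 and PDIA4 208658_at, where 3.85% of all probe sets lay under that level. The median mean change was 0.11 for the 18 probe sets and 0.0065 for all probe sets. Without CAOV-3 the members' median was 0.043 and 16 of the 18 means were positive.

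In CAOV-3, 16 of the 18 member probe sets were higher on the treated array, where 46.8% of all probe sets were, and XBP1 and HERPUD1 were the exceptions. For the 18, CAOV-3 had a median difference of 0.35, DOV-13 of 0.15, OVCAR-3 of 0.049 and SKOV-3 of -0.0099. The counts above 0 were 13 of 18 in DOV-13, 12 in OVCAR-3 and 9 in SKOV-3, where 60.8%, 47.4% and 53.1% of all probe sets were above 0. OVCAR-3, the line with the highest median of interferon-stimulated genes, had member differences between -0.12 and 0.13. With 1 array per condition in a line these differences have no replicate check, and a difference between lines in the response was not tested. The count of probe sets at least 0.5 higher, with the higher value at or above the array median, was 4 of 18 members in CAOV-3, against 4.28% of probe sets at that level. These were both PDIA4 probe sets, HYOU1 and DNAJB9 202843_at, while HSP90B1 216449_x_at at 0.4999 and CALR 200935_at at 0.498 lay just under the step. DNAJB9 202843_at met the condition on level only by its treated value of 6.43, as its untreated value of 5.55 lay under the array median. At a step of 0.3 the count was 10 members in CAOV-3, against 10.3% of probe sets. That count held DNAJB9 202843_at and also HSP90B1 216450_x_at, which again reached the median there only when treated (6.45 against 6.09). No member met the step of 0.5 downward in any line, where 2.97% of probe sets did in CAOV-3, 1.22% in SKOV-3, 0.439% in OVCAR-3 and 0.387% in DOV-13. None met it upward outside CAOV-3 at that level, where the shares were 0.66% for DOV-13, 0.879% for OVCAR-3 and 0.219% for SKOV-3. Without the condition on level, DNAJB9 202843_at also met it in DOV-13, at 0.51.

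**Figure D3:**
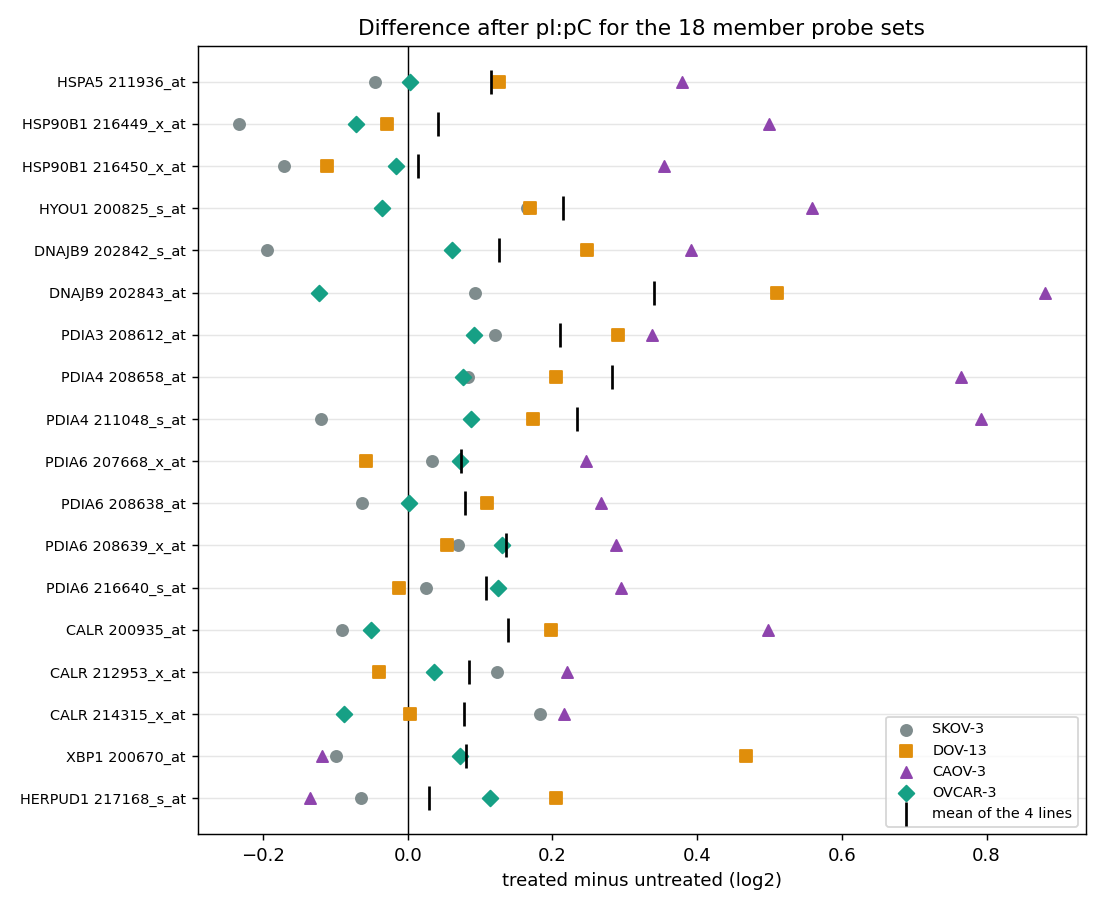
Treated minus untreated log2 level for each of the 18 member probe sets (rows), 1 point per cell line, with the mean of the 4 lines as a vertical bar. CAOV-3 lies to the right for the chaperone probe sets, up to 0.88 for DNAJB9 202843_at, and left of 0 for XBP1 and HERPUD1, where DOV-13 is rightmost.

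PDIA3 and PDIA4 had the smallest unadjusted p-values of the members, and neither passed after adjustment. PDIA3 differed by 0.34, 0.29, 0.092 and 0.12 in CAOV-3, DOV-13, OVCAR-3 and SKOV-3, a mean of 0.21 ± 0.12 (SD, n = 4 lines, limma unadjusted p = 0.0172, adjusted p = 0.996). It was higher on the treated array in all 4 lines, as were 2 further probe sets, PDIA4 208658_at and PDIA6 208639_x_at, and 11.5% of all probe sets had 1 sign in all 4 lines. PDIA4 differed by 0.76, 0.20, 0.077 and 0.084 in the same order of lines by 208658_at, and by 0.79, 0.17, 0.088 and -0.12 by 211048_s_at. Its CAOV-3 difference exceeded that of all but 2.25% and 2.10% of the probe sets at or above the median level of that line. The mean change of PDIA4 was 0.28 ± 0.33 and 0.23 ± 0.39 by the 2 probe sets, and 0.12 and 0.048 without CAOV-3. PDIA6 had differences of 0.25 to 0.29 in CAOV-3 over its 4 probe sets, and its means over the lines ran from 0.074 to 0.14, and from 0.016 to 0.084 without CAOV-3.

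Outside CAOV-3, the differences of HSPA5, HSP90B1 and HYOU1 lay between -0.23 and 0.17. HSPA5 differed by 0.38, 0.13, 0.0027 and -0.045 in CAOV-3, DOV-13, OVCAR-3 and SKOV-3, a mean of 0.12 ± 0.19 (SD, n = 4 lines), which was 0.028 without CAOV-3. HSP90B1 differed by 0.50, -0.028, -0.071 and -0.23 by probe set 216449_x_at, so it was lower on the treated array in 3 lines and higher in CAOV-3. Its mean of 0.042 ± 0.32 became -0.11 without CAOV-3. A further 2 brighter probe sets, annotated to HSP90B1 together with MIR3652 and so outside the rule, differed by 0.45 and 0.44 in CAOV-3. In DOV-13, OVCAR-3 and SKOV-3 the first differed by -0.036, -0.07 and -0.19. The second, the brightest, differed by -0.053, -0.077 and 0.047 there, so its sign in SKOV-3 was opposite to that of 216449_x_at. HYOU1 differed by 0.56, 0.17, -0.036 and 0.17, a mean of 0.21 ± 0.25 (limma unadjusted p = 0.0603), which was 0.099 without CAOV-3.

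DNAJB9 differed by 0.39, 0.25, 0.061 and -0.19 in CAOV-3, DOV-13, OVCAR-3 and SKOV-3 by its brighter probe set, and by 0.88, 0.51, -0.12 and 0.093 by the dimmer one. The means were 0.13 ± 0.25 and 0.34 ± 0.45 (SD, n = 4 lines), and 0.038 and 0.16 without CAOV-3. Both were higher on the treated arrays of DOV-13 and CAOV-3, and they had opposite signs in SKOV-3 and in OVCAR-3. In SKOV-3 both probe sets lay under the array median, treated and untreated, and in OVCAR-3 the dimmer one did. CALR differed by 0.22, -0.04, 0.036 and 0.12 by its brightest probe set and by 0.50, 0.20, -0.051 and -0.091 by 200935_at, which lay under the array median in OVCAR-3. The 3 CALR means ran from 0.079 to 0.14, and between 0.019 and 0.04 without CAOV-3.

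XBP1 and HERPUD1 followed another order of lines. XBP1 differed by -0.12, 0.47, 0.072 and -0.099 in CAOV-3, DOV-13, OVCAR-3 and SKOV-3, a mean of 0.081 ± 0.27 (SD, n = 4 lines), and HERPUD1 by -0.13, 0.20, 0.11 and -0.065, a mean of 0.03 ± 0.16. Both were lower on the treated array in SKOV-3 and CAOV-3 and higher in DOV-13 and OVCAR-3, and without DOV-13 their means became -0.048 and -0.029. The XBP1 difference in DOV-13 exceeded that of all but 0.960% of the probe sets at or above the median level there. DOV-13 was also the line with the lowest XBP1 level, and its treated value of 8.04 remained under every value of the other lines.

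Set beside the promoter stretches above, the 5 genes with an ERSE differed in CAOV-3 by 0.38 for HSPA5, 0.50 for HSP90B1, 0.29 for PDIA6, 0.22 for CALR and -0.12 for XBP1. The ERSE-II genes differed by 0.56 for HYOU1 and -0.13 for HERPUD1. PDIA4 and DNAJB9, without an exact match, differed by 0.79 and 0.39 by their brighter probe sets. PDIA3, whose promoter was not searched, differed by 0.34. Outside the members, 20 more gene names had a window with an ERSE and 9 of them were measured. Their median difference in CAOV-3 was 0.17, with 6 of 9 above 0, namely TRIM5, of the antiviral TRIM family, at 0.72, the folding factor gene CRELD2 at 0.42, ERO1B at 0.30, FICD at 0.19, SERP1 at 0.17 and GLRA2 at 0.051. The other 3 were SYNPO at -0.22, the glycan synthesis gene ALG12 at -0.17 and the lectin chaperone gene CANX at -0.013. ERO1B, GLRA2 and ALG12 lay under the array median on every array. Of all probe sets 46.8% were above 0 in CAOV-3. Of 12 measured genes with an ERSE-II outside the members, 4 were above 0 in CAOV-3, with a median of -0.11. The 4 were GYS1 at 0.54, the folding factor gene SDF2L1 at 0.29, RAD9A at 0.18 and NUCB1 at 0.091. The rest were below 0, down to NAV2 at -0.63. Among those, CAMTA1 at -0.37 and CNKSR1 at -0.28 lay under the array median on every array. These genes were looked up after the members' values were seen.

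Related genes of the same compartment were read from lists by role, with 1 probe set for each gene, and no gene of any list passed the test (limma, adjusted p at least 0.996). Over all 11963 genes, 53.7% had a positive mean change and the median was 0.0072. Of the other disulfide isomerases and oxidases 8 of 9 had a positive mean change, with a list median of 0.072 that was 0.024 without CAOV-3, and a median of 0.22 in CAOV-3 itself. ERO1A, the oxidase that recharges the isomerases, differed by 0.73, 0.12, 0.27 and -0.22 in CAOV-3, DOV-13, OVCAR-3 and SKOV-3. Its relative ERO1B, which lay under the array median on every array, differed by 0.30, 0.31, -0.0071 and -0.042. QSOX1, an oxidase of the secretory pathway, differed by 0.27, 0.25, 0.066 and 0.19. Other luminal co-chaperones and folding factors had 15 of 18 positive and a median of 0.08, which was 0.029 without CAOV-3 and 0.051 without DOV-13, with 0.18 in CAOV-3. In that list the J-domain protein gene DNAJC1 differed by 0.49, 0.36, 0.22 and -0.0018, SDF2L1 by 0.29, 0.079, 0.29 and -0.13 and the calcium-binding RCN1 by 0.18, 0.15, 0.081 and 0.16.

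Lectin chaperones and glycan processing genes had 5 of 8 positive and a median of 0.0066, led by the glucosidase gene MOGS with 0.48, 0.43, 0.095 and 0.011 in CAOV-3, DOV-13, OVCAR-3 and SKOV-3. GANAB and PRKCSH, the 2 subunits of the next glucosidase, had means of -0.027 ± 0.094 and 0.057 ± 0.16 (SD, n = 4 lines). ER-associated degradation genes had 10 of 12 positive with a median of 0.02 (0.046 without OVCAR-3), and SEL1L, the scaffold of the HRD1 ligase, had -0.38, -0.035, -0.062 and 0.093. EDEM3 and UBXN4 had means of 0.079 ± 0.28 and 0.08 ± 0.074. The translocon and signal peptide processing list had 11 of 16 positive with a median of 0.024 (0.044 without OVCAR-3). There SPCS3 had a mean of -0.11 ± 0.26, SEC62 0.084 ± 0.13 and SEC63 0.055 ± 0.054.

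The list of sensors and of the proteases that cut ATF6 had 8 of 10 positive with a median of 0.016, which was 0.044 without SKOV-3 and 4.2e-05 without DOV-13. ERN1 differed by -0.19, -0.21, -0.11 and 0.19, ERN2 by -0.19, 0.051, 0.33 and 0.11 and ATF6 by 0.12, 0.066, -0.026 and 0.06 in the same order of lines. Outputs of the PERK branch, the arm that slows translation, had 6 of 9 positive means with a median of 0.058, which was 0.099 without CAOV-3, 0.016 without SKOV-3 and -0.0049 without DOV-13. Of these genes 8 of 9 were lower on the treated array in CAOV-3, with a median of -0.11, where the members had 0.36 by 1 probe set a gene. Over all probe sets 46.8% were above 0 in that line. ATF3, PPP1R15A and CHAC1 lay under the array median on both CAOV-3 arrays, and the list median was the PPP1R15A value. CEBPB and DDIT4 differed there by only -0.026 and -0.021. In DOV-13 the PERK list had 7 of 9 above 0 and a median of 0.21. CHAC1 had a mean of 0.15 ± 0.11, CEBPB 0.079 ± 0.071 and DDIT4 -0.18 ± 0.32 (SD, n = 4 lines).

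MHC class I peptide loading, in which PDIA3 and CALR also take part, had 7 of 8 positive means with a median of 0.37, or 0.20 without CAOV-3. By line its medians were 0.82 in CAOV-3 and 0.37 in OVCAR-3. The peptide transporter genes TAP1 and TAP2 differed by 1.63 and 1.23 in CAOV-3 and TAPBP, the tapasin gene, by 1.08, while PDIA3 differed by 0.34 and CALR by 0.22. In OVCAR-3 TAP1 differed by 0.87, PDIA3 by 0.092 and CALR by 0.036. Cytosolic and mitochondrial heat shock protein genes had 9 of 13 positive means over the 4 lines with a median of 0.038, which was 0.081 without SKOV-3 and -0.00081 without CAOV-3. In CAOV-3 11 of 13 were above 0, with a median of 0.11. The means were 0.14 ± 0.09 for their regulator HSF1, 0.076 ± 0.088 for HSP90AB1 and 0.072 ± 0.10 for TRAP1. Among interferon-stimulated genes IFIT1, IFI44 and IFI44L differed by 2.52, 1.82 and 2.89 in CAOV-3.

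**Figure D4:**
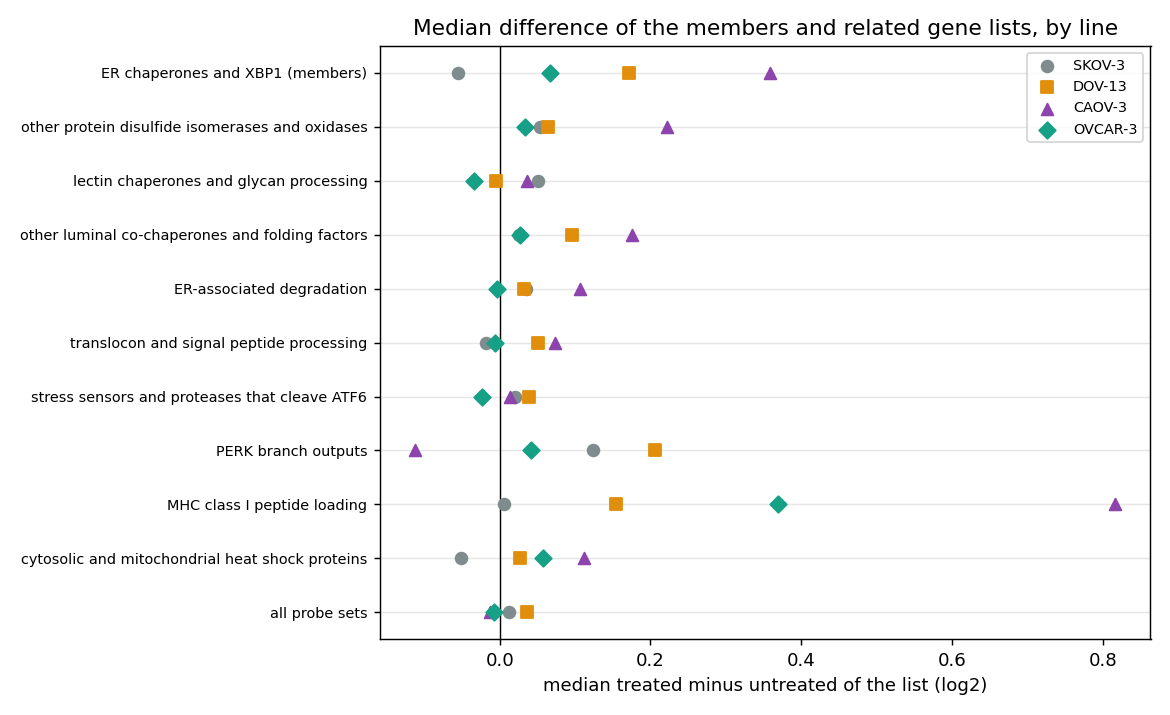
Median of treated minus untreated (log2) over the genes of each list, 1 point per cell line, with the 10 members by 1 probe set a gene in the top row and all probe sets in the bottom row. The members' CAOV-3 point is at 0.36, between MHC class I peptide loading at 0.82 and the other isomerases at 0.22. The PERK outputs lie at -0.11, the value of a probe set under the array median.

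Marker lists of other cell types were set beside these differences. The summed level of 5 leukocyte markers lay between 7.35 and 7.74 on the treated arrays and between 7.44 and 8.11 on the untreated arrays. CD14 differed by -0.91 in CAOV-3, and 5 of 5 plasma cell markers were above 0 there, with a median of 0.15. Among all probe sets 46.8% were above 0 in that line. Of the plasma cell markers, MZB1, JCHAIN and TNFRSF17 lay under the array median on every array. The summed level of the plasma cell list lay between 9.52 and 9.89 on treated and between 9.28 and 9.90 on untreated arrays, and its differences in CAOV-3 were 0.35 for SDC1, 0.18 for TNFRSF17, 0.15 for PRDM1, 0.086 for JCHAIN and 0.015 for MZB1. Epithelial markers summed to 13.27 to 14.04 on treated and 13.27 to 14.14 on untreated arrays, and fibroblast and endothelial markers to 8.46 to 9.43 on treated and 8.47 to 9.17 on untreated arrays. Positive means over the lines numbered 4 of 8 for epithelial, 3 of 5 for leukocyte, 4 of 5 for plasma cell and 5 of 7 for fibroblast and endothelial markers. The part of these markers in the members' differences was not tested.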

How the data were processed

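The 8 Affymetrix arrays hold RNA of 4 ovarian cancer cell lines, each with pI:pC and without. The deposited log2 values are RMA levels per the submitters' processing notes, and its version and any batches of arrays are unstated in these sources. RMA understates changes of dim probe sets. Names of probe sets came from GEO's platform annotation (19064 with 1 gene symbol, 1043 with several, 2108 without, besides 62 array controls, which were left out). Groups and lines came from the sample labels, and the line pairs the arrays: deviations from the group means correlated at 0.936 to 0.965 within pairs.

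All 22215 probe sets were fitted with limma 3.58.1 in R 4.3.3 (lmFit, eBayes), with line and treatment as additive terms, 3 residual and 4.59 prior degrees of freedom, with two-sided tests, p-values adjusted by Benjamini-Hochberg over the whole table and a threshold of 0.05. Treatment was tested as 1 coefficient and the line by an F test and by 6 pairwise contrasts. With 1 array per line and condition the p-values measure the spread between these samples, and error within a line is unknown. The number of arrays limits the precision. Member means are given with the SD over lines. The fits were tested on simulated data.

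The named genes are all members, for each list, in which no gene passed, the 3 whose mean change was greatest in size, and the 5 genes most correlated with XBP1 and with HSPA5 (mean at or above the median, SD at least 0.3). Genes outside this rule were chosen after their values were seen. They are the further marker genes (KRT8, KRT18, KRT19, PAX8, CDH1, JCHAIN, TNFRSF17), ATF3, PPP1R15A and the non-member genes with an ERSE or an ERSE-II. Members and lists were chosen with earlier results of these data known. For lists the probe set with the highest mean stood for a gene. Probe sets ending in x_at can take up related transcripts. Promoter sequences are from RefSeq (GRCh38.p14). Alternatives were no block, a level filter, renormalization, centring, another prior, 1 probe set per gene, other steps and leaving out each line.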

Additional observations from a re-analysis of the deposited data

Results flagged for a closer look

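Of 54 groups of 4 values (treated, untreated and difference for 18 probe sets), 1 held a value far from the other 3, and chance flags about 1 group in 20. HYOU1 (200825_s_at) read 8.74 in treated and 8.78 in untreated OVCAR-3, and the untreated value lay below 9.22 to 9.27 in the other untreated lines.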

How the results depend on the processing

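The count of probe sets past the threshold for treatment stayed at 0, in all and among the members, under every alternative run, although the count at an unadjusted p under 0.05 moved between 19 without the replicate block and 1504 without SKOV-3, from 855. The fit with the paired lines as a replicate block and the fit without it gave the same 0 calls and the same member median of 0.11. The number of member probe sets with a positive mean was 16 to 18 when lines were left out in turn, and 10 of 10 with 1 probe set per gene. The sign of the mean turned without CAOV-3 for HSP90B1 (216449_x_at at -0.11 and 216450_x_at at -0.10, with highest values of 0.13 and 0.075 without SKOV-3) and without DOV-13 for XBP1 (-0.048) and HERPUD1 (-0.029), which had 0.15 and 0.084 without CAOV-3. The member probe sets called between lines were 7 to 14 when lines were left out in turn, with 7 without OVCAR-3 and 11 without CAOV-3. Each of these fits holds fewer samples, the count was 14 without SKOV-3 and without DOV-13, and the cause was not tested. With a step of 1 no member was counted in CAOV-3. Without the condition on level 1 member, DNAJB9 202843_at, was counted in DOV-13. Small list medians turned sign when a line was left out: lectin chaperones (-0.017 without SKOV-3, -0.004 without DOV-13), PERK outputs (-0.005 without DOV-13), heat shock proteins (-0.0008 without CAOV-3) and leukocyte markers (-0.028 without SKOV-3). Dim probe sets, such as DNAJB9 202843_at outside CAOV-3, limit what their differences show.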
